A study of Mus musculus with 6 samples.

Results

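The mouse genes of cytochrome P450 families 1, 2 and 3 were taken as every row of the deposited expression table whose symbol has the form Cyp, a family digit of 1, 2 or 3, a subfamily letter and a gene number. This rule found 60 of 56534 genes or loci, and symbols ending in -ps (pseudogenes) fell outside it. Of the 60 genes, 37 had a mean of at least 1 FPKM over the 6 libraries and were tested. FPKM are fragments divided by gene length and by the mapped fragments of a library, so levels can be set side by side between genes. Each library is liver RNA from C57BL/6 mice fed for 16 weeks with a diet holding 60% of its energy as fat. CON 1 to 3 are labelled wild type. LKO 1 to 3 carry the genotype label CD36-/-, and the study's title gives the deletion as restricted to hepatocytes. The diet was thus shared by both groups, and no group on another diet was analysed here. No label names a Cre driver, sex or age, or says whether each library is a different animal, so p-values cover only the spread between these libraries, which may be technical. Y-linked Ddx3y was at 7.53 to 11.3 FPKM in the 6 libraries and Xist was listed at 0 in all of them. The comparison asks how liver P450 transcripts differ when hepatocytes lack CD36, which takes up long-chain fatty acids at the cell surface.

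Cytochrome P450 enzymes are heme proteins of the endoplasmic reticulum that insert an oxygen atom into a substrate, with electrons passed on by the reductase Por. Families 1, 2 and 3 hold the main drug- and toxin-oxidising enzymes of the liver, and several of them also act on steroids, retinoids and polyunsaturated fatty acids. Most are made in hepatocytes, many near the central vein. Their transcription is known to respond to the nuclear receptors CAR (Nr1i3) and PXR (Nr1i2), to the aryl hydrocarbon receptor AHR, and to the sex-specific pattern of growth hormone release.

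No P450 gene passed the test over all genes. Of the 37 tested members, 0 were lower and 0 higher at an adjusted p under 0.05 (limma, a linear model fitted to log2(FPKM + 1) of all 11104 tested genes, with Benjamini-Hochberg adjustment), where 0.00901% of all tested genes were lower and 0% higher. At an unadjusted p under 0.05, 14 members were lower in LKO and 1 was higher, 37.8% and 2.7% of members, beside 18.9% and 3.25% of all tested genes. The LKO libraries all lay below the CON libraries for 13 members, or 35.1%, beside 24.3% of all tested genes. No tested member had all LKO libraries above CON, where 3.92% of all tested genes did. The log2 fold change was negative for 25 members, 67.6%, beside 71.6% of all tested genes, and its median was -0.36 over the members and -0.23 over all tested genes. That background depends on how the libraries are scaled. After median-ratio scaling the medians were -0.066 and 0.01, 56.8% of members and 48.9% of all tested genes were negative, and 5 members were lower and 4 higher at an unadjusted p under 0.05 (13.5% and 10.8%, beside 7.96% and 10.2% of all tested genes). For 5 tested members (Cyp2a22, Cyp2b9, Cyp2c39, Cyp2d34 and Cyp2j11) the mean was below 1 FPKM in 1 group, so that they passed the filter through the other group, and the counts are to be read with this in mind.

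The start regions of 6 genes are shown because the genes of the Cyp2a and Cyp2b group, which lie in 1 gene cluster on chromosome 7, gave the largest differences in both directions, and because Cyp2e1 was the most abundant member. RefSeq promoter sequences of build GRCm38.p6 were found for 31 of the 37 tested members. Each line gives the 250 bases before the transcription start, 5′ to 3′ on the gene's strand. Capitals mark matches to TATAAA (the box that many liver promoters hold near the start, searched on the gene's strand), and on both strands to AGGTCA (half-site of nuclear receptors), CAAAGTCCA (HNF4A), GTTAAT (HNF1), TTGCNNAA (C/EBP), TTANGTAA (PAR bZIP factors such as Hlf) and GCGTG (AHR). The regions are chr7:26173159-26173408 for Cyp2b9, chr7:26061245-26061494 for Cyp2b13, chr7:25897408-25897657 for Cyp2b10, chr7:26835089-26835338 for Cyp2a5, chr7:26306942-26307191 for Cyp2a4 and chr7:140763569-140763818 for Cyp2e1, all on the plus strand.
Cyp2b9: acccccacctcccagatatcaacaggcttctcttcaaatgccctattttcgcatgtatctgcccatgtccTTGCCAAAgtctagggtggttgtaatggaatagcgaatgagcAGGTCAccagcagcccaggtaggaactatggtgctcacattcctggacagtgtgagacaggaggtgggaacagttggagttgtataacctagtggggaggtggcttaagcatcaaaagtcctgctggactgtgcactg
Cyp2b13: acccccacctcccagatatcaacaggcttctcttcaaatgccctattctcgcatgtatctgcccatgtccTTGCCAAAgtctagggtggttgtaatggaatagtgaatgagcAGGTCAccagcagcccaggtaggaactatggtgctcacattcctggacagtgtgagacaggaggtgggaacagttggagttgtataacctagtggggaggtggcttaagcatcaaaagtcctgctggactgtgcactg
Cyp2b10: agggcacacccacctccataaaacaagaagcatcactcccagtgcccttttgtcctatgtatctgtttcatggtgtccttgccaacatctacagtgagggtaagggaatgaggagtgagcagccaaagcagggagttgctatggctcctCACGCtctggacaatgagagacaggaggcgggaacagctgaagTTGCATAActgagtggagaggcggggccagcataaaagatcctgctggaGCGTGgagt
Cyp2a5: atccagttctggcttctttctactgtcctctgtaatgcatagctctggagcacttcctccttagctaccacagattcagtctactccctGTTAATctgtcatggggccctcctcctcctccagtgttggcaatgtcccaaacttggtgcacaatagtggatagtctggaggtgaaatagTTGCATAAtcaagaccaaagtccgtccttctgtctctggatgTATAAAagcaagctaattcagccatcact
Cyp2a4: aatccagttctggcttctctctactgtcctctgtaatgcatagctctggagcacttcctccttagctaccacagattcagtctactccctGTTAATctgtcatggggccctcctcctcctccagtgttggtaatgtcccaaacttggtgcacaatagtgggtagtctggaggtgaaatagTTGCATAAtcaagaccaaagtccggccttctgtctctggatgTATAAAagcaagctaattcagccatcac
Cyp2e1: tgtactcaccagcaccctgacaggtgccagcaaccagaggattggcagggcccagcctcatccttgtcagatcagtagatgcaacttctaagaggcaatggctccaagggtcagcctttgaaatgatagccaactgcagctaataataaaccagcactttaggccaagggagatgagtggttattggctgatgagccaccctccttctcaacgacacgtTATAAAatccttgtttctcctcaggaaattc
Cyp2b9 and Cyp2b13 were 99.2% identical over these bases and differed at 2 positions, T48C and C104T, counted from 1 at the 5′ end with the Cyp2b9 base first. Both held the same 2 matches, for C/EBP and for the nuclear receptor half-site. Aligned with gaps, Cyp2b10 was 71.0% identical to either of them. Cyp2a5 and Cyp2a4 were 97.6% identical and both held matches for HNF1, C/EBP and TATAAA. Over the 33 promoters of tested members, 30.3% held TATAAA, 33.3% AGGTCA, 24.2% TTGCNNAA, 15.2% CAAAGTCCA, 12.1% GTTAAT, 3.03% TTANGTAA and 6.06% GCGTG. Over all 32851 promoters of the same length the shares were 7.59%, 14.0%, 9.56%, 0.384%, 6.43%, 2.06% and 28.2% in the same order. Related members share promoter sequence, so these promoters are not independent, and a match is a description of the letters only.

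The 60 genes together summed to 20844, 18226 and 16342 FPKM in CON 1 to 3. The sums were 12404, 12975 and 18716 FPKM in LKO 1, LKO 2 and LKO 3. LKO 1 and LKO 2 lay below all CON libraries, while LKO 3 lay within the CON range. As a share of all FPKM in a library, the genes took 2.51%, 1.96% and 1.67% in CON 1 to 3 and 1.05%, 1.02% and 1.95% in LKO 1 to 3. These shares also depend on the total, which was 831928, 928647 and 976871 FPKM in CON 1 to 3. In LKO 1 to 3 the total was 1.18e+06, 1.27e+06 and 959442 FPKM. A single gene, Cyp2e1, made up 42.5%, 47.1% and 43.2% of the P450 sum in the CON libraries and 37.6%, 39.6% and 31.6% in the LKO libraries. The Cyp2c subfamily made up 21.3%, 21.7% and 17.9% in CON and 25.9%, 25.5% and 32.6% in LKO. It was the second largest after Cyp2e1 except in CON 3, where Cyp2d took 21.5%, and in LKO 3, where it was above Cyp2e1. Without Cyp2e1 the sums overlapped, with CON at 10301 ± 1474 FPKM and LKO at 9460 ± 2899 FPKM (SD, n = 3 each).

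**Figure D1:**
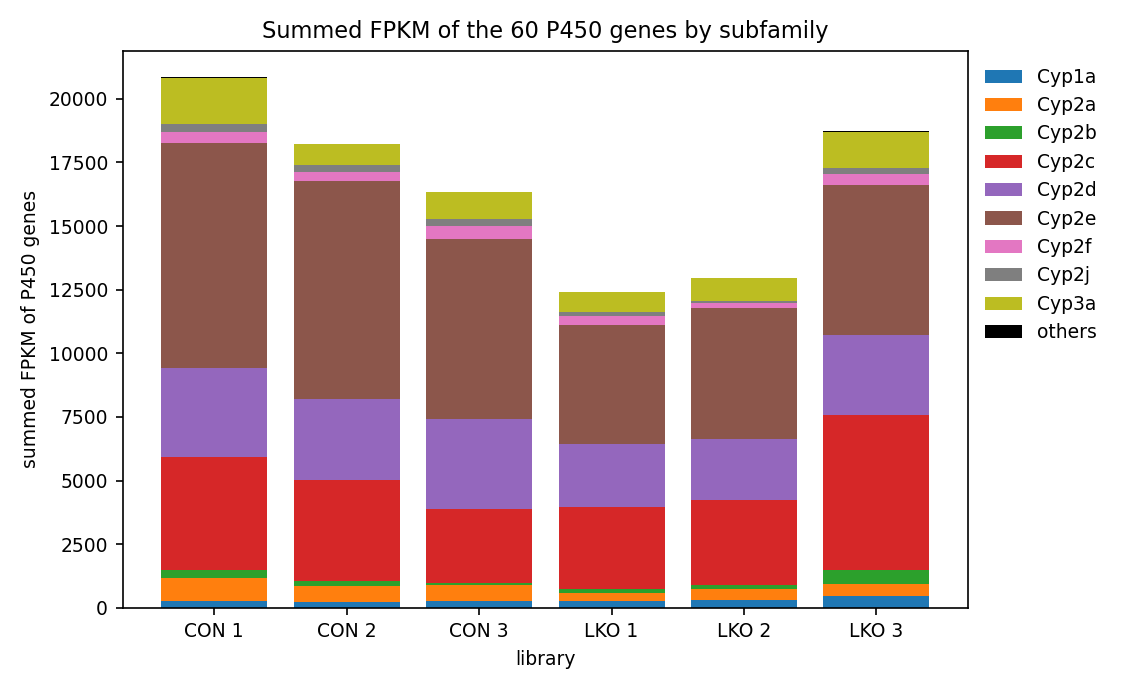
Summed FPKM of the 60 P450 genes (y axis) in each of the 6 liver libraries (x axis), stacked by subfamily. The Cyp2e segment, which is Cyp2e1, is shorter in every LKO library than in every CON library, and the total of LKO 3 at 18716 lies between those of CON 1 and CON 3.

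By mean level over the 6 libraries, the most abundant members were Cyp2e1 (6704 FPKM), Cyp2c29 (1859), Cyp2d9 (1294), Cyp2d10 (922), Cyp2c50 (915), Cyp3a11 (827), Cyp2d26 (624), Cyp2c54 (423), Cyp2f2 (376) and Cyp2c37 (345). Every Cyp2e1 value lay above every value of the other 59 genes, while the libraries of neighbours from Cyp2c29 down overlapped. The 23 members below the filter included 18 that never exceeded 0.5 FPKM, of which 5 were listed at 0 in all libraries, and 5 that reached 1 FPKM in at least 1 library. The members nearest to the filter were Cyp2d34 (mean 1.005 FPKM) and Cyp2c39 (1.07) just inside it, and Cyp2j9 (0.998) and Cyp2d11 (0.983) just outside. Within a group, the highest library was a median of 1.61 times the lowest for CON and 1.62 times for LKO. Cyp2d9 was the steadiest in CON, at 1.07 times, and Cyp2b9 the most variable, at 74.0 times.

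**Figure D2:**
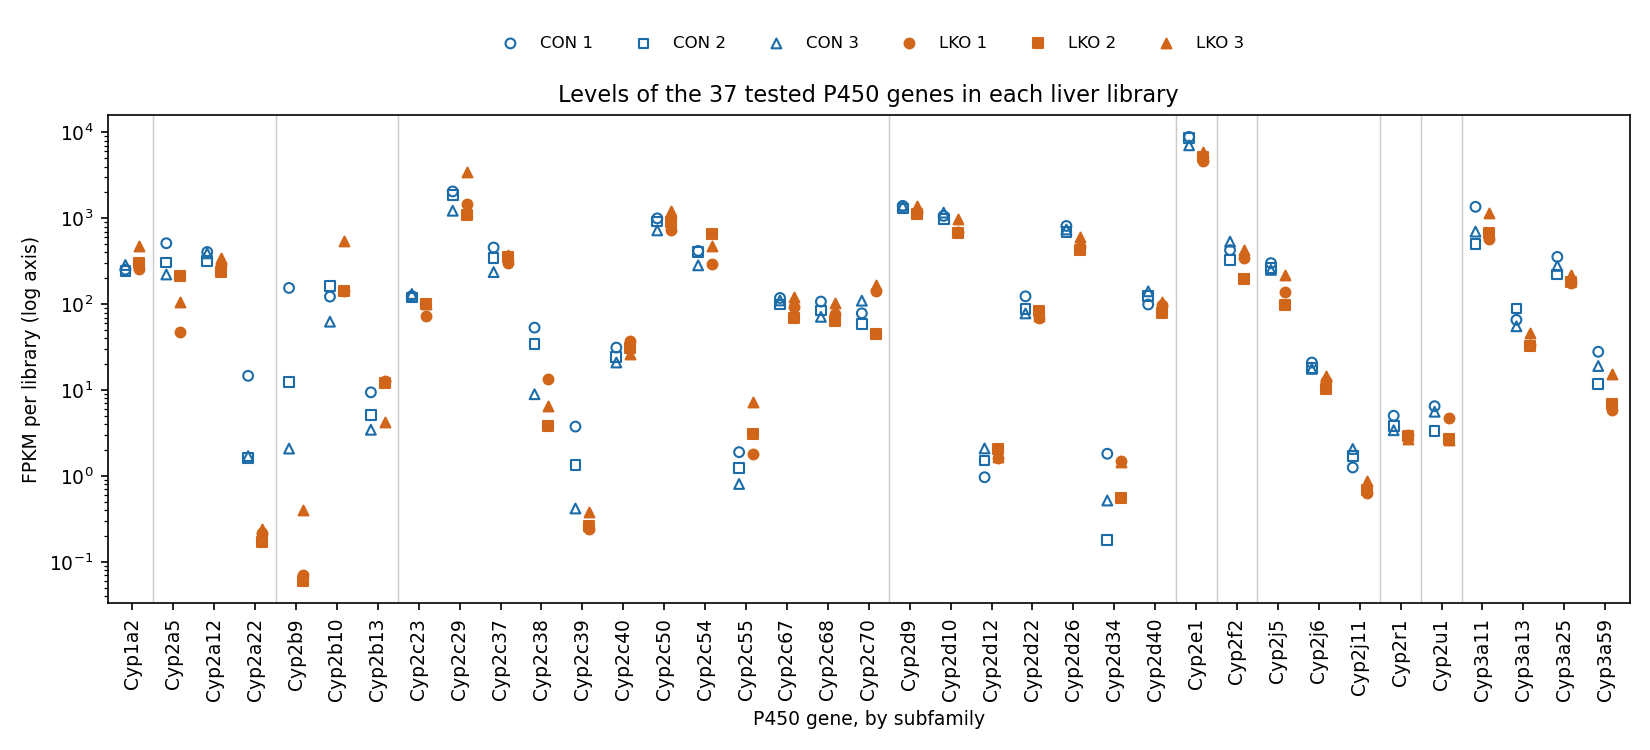
FPKM (y axis, log axis) of the 37 tested P450 genes (x axis, grouped by subfamily) in each library, with CON as open and LKO as filled symbols. Levels run from 0.06 FPKM for Cyp2b9 in LKO 2 to 8854 FPKM for Cyp2e1 in CON 1, and Cyp2b9 and Cyp2a22 show the widest gaps between the groups.

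Cyp2e1, the pericentral enzyme that oxidises ethanol, acetone and other small molecules, was lower in LKO in every library. It was at 8854, 8592 and 7064 FPKM in CON 1 to 3 and at 4668, 5139 and 5909 FPKM in LKO 1 to 3. The groups did not overlap, and all LKO libraries lay at least 1154 FPKM below the lowest CON library. The means were 8170 ± 967 and 5239 ± 627 FPKM (SD, n = 3 each). The log2 fold change was -0.64 (SE 0.23), which did not pass over all genes (limma, adjusted p = 0.197). It was -0.34 after median-ratio scaling and -1.32 after quantile normalization.

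In family 1, Cyp1a2 was the only tested member. It oxidises caffeine and aromatic amines and is known to be high near the central vein. Its values were 253, 244 and 286 FPKM in CON 1 to 3 and 259, 302 and 474 FPKM in LKO 1 to 3. The groups overlapped and LKO 3 was the highest library, with a log2 fold change of 0.36 (SE 0.25, limma, adjusted p = 0.387) that was 0.66 after median-ratio scaling and 0.10 without LKO 3. Cyp1a1, the AHR-induced relative of Cyp1a2, was at 0.22, 0.31 and 0.24 FPKM in CON and at 0.17, 0.25 and 0.40 FPKM in LKO. Cyp1b1, which acts mostly outside the liver, did not exceed 0.47 FPKM in any library. Both lay below the filter and were not tested.

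Of the Cyp2a genes, which oxidise coumarin, nicotine and steroids, 3 of 4 were tested. All 3 had a negative log2 fold change, as did 71.6% of all tested genes, and Cyp2a22 passed the filter only through CON. Cyp2a5, the coumarin hydroxylase, was at 512, 305 and 222 FPKM in CON 1 to 3 and at 47.5, 216 and 105 FPKM in LKO 1 to 3. The groups did not overlap, but LKO 2 came within 6.16 FPKM of CON 3, with a log2 fold change of -1.66 (SE 0.54) and no pass over all genes (limma, adjusted p = 0.187). Cyp2a22 was at 14.7, 1.61 and 1.71 FPKM in CON and at 0.22, 0.17 and 0.24 FPKM in LKO. Its groups did not overlap either, with a log2 fold change of -1.99 (SE 0.63, limma, adjusted p = 0.186). CON 1 carried much of the size of this value, which was -1.14 without CON 1 (limma, adjusted p = 0.379), and -3.54 with a pseudocount of 0.1. For Cyp2a12 the groups overlapped, with CON at 371 ± 47.0 FPKM and LKO at 290.1 ± 52.6 FPKM (SD, n = 3 each). Cyp2a4, a steroid hydroxylase that is higher in female mice, was below the filter at 1.23, 0.08 and 0.02 FPKM in CON and at 0.09, 0.06 and 0.02 FPKM in LKO. Its only value above 0.1 FPKM was that of CON 1, although its start region was nearly the same as that of Cyp2a5.

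The Cyp2b genes, known for their response to CAR, gave the widest range of differences. Cyp2b9, which is higher in female than in male mouse liver, was at 155, 12.5 and 2.09 FPKM in CON 1 to 3. In LKO 1 to 3 it was at 0.07, 0.06 and 0.40 FPKM. All LKO libraries lay below all CON libraries, as for 24.3% of all tested genes, and the CON libraries themselves spread over 74.0 times. Cyp2b9 passed the filter only through CON. The means were 56.4 ± 85.3 and 0.177 ± 0.193 FPKM (SD, n = 3 each) and the log2 fold change was -4.00 (SE 1.20, limma, adjusted p = 0.179). It was -2.47 without CON 1 (limma, adjusted p = 0.486), -5.29 without CON 3 and -6.09 with a pseudocount of 0.1. Cyp2b13, whose start region differs from that of Cyp2b9 at 2 bases, was at 9.44, 5.13 and 3.46 FPKM in CON 1 to 3 and at 12.9, 12.01 and 4.27 FPKM in LKO 1 to 3. Its groups overlapped, with a log2 fold change of 0.58 (SE 0.44, limma, adjusted p = 0.423) that ran from 0.30 without CON 3 to 1.03 without LKO 3. Within CON both genes were highest in CON 1 and lowest in CON 3, but in LKO 1 and LKO 2 Cyp2b13 was at its highest and Cyp2b9 at its lowest. The difference between both genes was not tested.

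Cyp2b10, the standard marker of CAR activity in mouse liver, was at 122.6, 164 and 62.6 FPKM in CON 1 to 3 and at 142, 143 and 540 FPKM in LKO 1 to 3. LKO 1 and LKO 2 lay within the CON range and LKO 3 lay far above all other libraries. The log2 fold change of 1.04 (SE 0.56, limma, adjusted p = 0.292) was 0.40 without LKO 3. Cyp2b19 and Cyp2b23 did not exceed 0.05 FPKM.

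**Figure D3:**
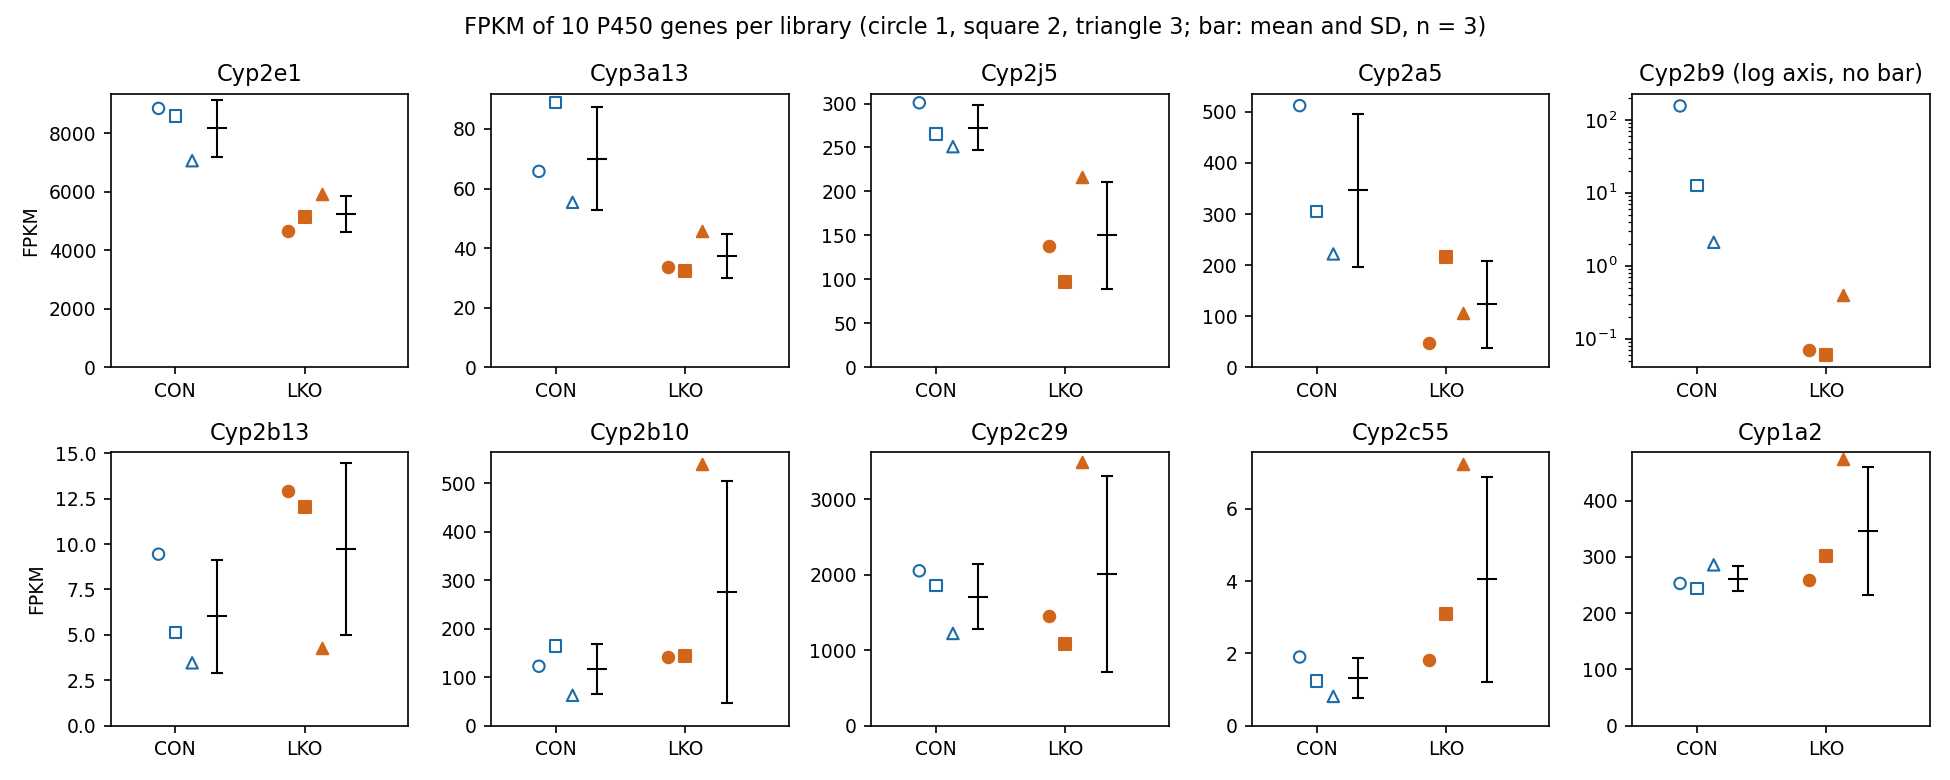
FPKM (y axis, a log axis for Cyp2b9) of 10 P450 genes in the CON and LKO libraries, with circles, squares and triangles for libraries 1, 2 and 3 and a bar for the mean and SD (n = 3; none for Cyp2b9). Cyp2e1, Cyp3a13, Cyp2j5, Cyp2a5 and Cyp2b9 show no overlap of the groups, while Cyp2b10, Cyp2c29, Cyp2c55 and Cyp1a2 have their highest value in LKO 3.

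The Cyp2c subfamily, which epoxidises arachidonic and linoleic acid and oxidises drugs, had 12 of 15 genes tested, of which 5 were negative and 7 positive (median log2 fold change 0.06), or 3 negative after median-ratio scaling (median 0.36). At an unadjusted p under 0.05, 3 were lower and 1 was higher, beside 18.9% and 3.25% of all tested genes. After that scaling 0 were lower and 2 higher, beside 7.96% and 10.2% of all tested genes. Cyp2c39, among the 3 lower ones, passed the filter only through CON. Cyp2c29, the most abundant of them and known to respond to CAR, was at 2053, 1860.1 and 1223 FPKM in CON and at 1449, 1077 and 3490 FPKM in LKO. LKO 2 was the lowest and LKO 3 the highest of all libraries, and the log2 fold change was 0.07 (SE 0.44, limma, adjusted p = 0.928). Cyp2c50 was at 998, 918 and 723 FPKM in CON and at 725, 909 and 1217 FPKM in LKO. Cyp2c54 was at 417, 408 and 283 FPKM in CON and at 297, 654 and 477 FPKM in LKO. Cyp2c37 was at 457, 344 and 236 FPKM in CON and at 298, 357 and 378 FPKM in LKO. The groups of these 3 genes overlapped, with log2 fold changes of 0.09, 0.31 and 0.04. The signs of Cyp2c29, Cyp2c50 and Cyp2c37 turned without LKO 3, to -0.42, -0.10 and -0.03.

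Cyp2c38 and Cyp2c39, neighbours in the Cyp2c cluster, were lower in LKO. Cyp2c38 was at 53.4, 34.2 and 8.97 FPKM in CON and at 13.3, 3.86 and 6.48 FPKM in LKO, with an overlap between CON 3 and LKO 1. Cyp2c39, a retinoic acid hydroxylase, was at 3.77, 1.36 and 0.42 FPKM in CON and at 0.24, 0.26 and 0.38 FPKM in LKO, with no overlap. Their log2 fold changes were -1.73 (SE 0.64) and -0.96 (SE 0.40), and neither passed (limma, adjusted p = 0.198 and 0.216). In both genes CON 1 was the highest and CON 3 the lowest of the CON libraries, as for Cyp2b9 and Cyp2a5. Cyp2c39 had a log2 fold change of -1.88 with a pseudocount of 0.1 and -0.50 without CON 1.

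Cyp2c55, known to respond to CAR and PXR, was the only member higher at an unadjusted p under 0.05. It was at 1.90, 1.24 and 0.81 FPKM in CON and at 1.83, 3.08 and 7.25 FPKM in LKO. LKO 1 lay within the CON range and LKO 3 was the highest, with a log2 fold change of 1.01 (SE 0.39, limma, adjusted p = 0.207) that was 0.58 without LKO 3. Cyp2c23, an arachidonic acid epoxygenase outside the main Cyp2c cluster, was at 124, 120.02 and 132 FPKM in CON and at 73.4, 99.4 and 101 FPKM in LKO. Its groups did not overlap and its log2 fold change was -0.47 (SE 0.19, limma, adjusted p = 0.212), or -0.17 after median-ratio scaling. Cyp2c70, which hydroxylates bile acids to muricholic acids in mice, ranged from 44.5 FPKM in LKO 2 to 167 FPKM in LKO 3. Cyp2c40, Cyp2c67 and Cyp2c68 had log2 fold changes of 0.29, -0.24 and -0.11, of which the last pair turned to 0.05 and 0.19 after median-ratio scaling. Cyp2c69, below the filter, had CON at 0.280 ± 0.118 FPKM and LKO at 1.16 ± 0.57 FPKM (SD, n = 3 each), with no overlap, and was not tested.

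In the Cyp2d subfamily 7 of 8 genes were tested, 5 with a negative and 2 with a positive log2 fold change (4 and 3 after median-ratio scaling). Cyp2d9, the male-biased testosterone hydroxylase, was at 1395, 1301 and 1394 FPKM in CON and at 1162, 1135 and 1375 FPKM in LKO. It was nearly level over the 6 libraries, with a log2 fold change of -0.16 (SE 0.19, limma, adjusted p = 0.5995) that became 0.14 after median-ratio scaling. Cyp2d26 was at 814, 696 and 740.1 FPKM in CON and at 465, 429 and 599.7 FPKM in LKO. It was the only Cyp2d gene without overlap, at a log2 fold change of -0.60 (SE 0.20, limma, adjusted p = 0.187), or -0.30 after median-ratio scaling. Cyp2d10 was at 1065, 973 and 1163 FPKM in CON and at 688, 669 and 976 FPKM in LKO, where only LKO 3 reached the CON range. Cyp2d40 and Cyp2d22 had log2 fold changes of -0.36 and -0.35, and the low-level Cyp2d12 and Cyp2d34 of 0.16 and 0.31.

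All 3 tested Cyp2j genes were lower in LKO without overlap, as were 24.3% of all tested genes, and the other 5 of the 8 were below the filter. Cyp2j11 passed the filter only through CON. Cyp2j5, an arachidonic acid epoxygenase of liver and kidney, was at 301, 265 and 251 FPKM in CON and at 138, 96.8 and 217 FPKM in LKO. Cyp2j6 was at 21.0, 18.2 and 17.7 FPKM in CON and at 12.8, 10.4 and 14.5 FPKM in LKO. Cyp2j11 was at 1.26, 1.70 and 2.07 FPKM in CON and at 0.64, 0.69 and 0.88 FPKM in LKO. In Cyp2j5 and Cyp2j6 LKO 3 was the LKO library closest to CON. Their log2 fold changes were -0.93 (SE 0.29), -0.56 (SE 0.18) and -0.62 (SE 0.19), and none passed (limma, adjusted p = 0.183, 0.187 and 0.180). After median-ratio scaling they were -0.63, -0.28 and -0.46.

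Of the single-gene subfamilies, Cyp2f2, a periportal enzyme that oxidises naphthalene, was at 426, 327 and 535 FPKM in CON and at 344, 194 and 432 FPKM in LKO, with overlapping groups. Cyp2r1, the microsomal hydroxylase that starts vitamin D activation, was at 4.10 ± 0.84 and 2.90 ± 0.16 FPKM (SD, n = 3 each) with no overlap and a log2 fold change of -0.38 (SE 0.19, limma, adjusted p = 0.261). Cyp2u1, a fatty acid hydroxylase, had a log2 fold change of -0.50 (SE 0.28). Cyp2g1, Cyp2s1, Cyp2t4 and Cyp2w1 were below the filter, the last listed at 0 in every library.

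Family 3 is the Cyp3a subfamily, whose members oxidise many drugs and steroids. Cyp3a13 had the smallest unadjusted p of all members. It was at 65.8, 89.0 and 55.4 FPKM in CON and at 33.7, 32.4 and 45.9 FPKM in LKO. The groups did not overlap, with a log2 fold change of -0.88 (SE 0.23) and no pass over all genes (limma, adjusted p = 0.176), or -0.59 after median-ratio scaling. Cyp3a11, the main hepatic Cyp3a of mice and a PXR target, was at 1359.8, 499.5 and 699.5 FPKM in CON and at 573, 678 and 1152 FPKM in LKO. Its spread within each group was larger than the difference of the means, and its log2 fold change of -0.03 was 0.27 after median-ratio scaling and 0.37 without CON 1. Cyp3a25 was at 355, 222 and 279 FPKM in CON and at 178, 183 and 221 FPKM in LKO, with CON 2 and LKO 3 apart by 1.30 FPKM. Cyp3a59 was at 28.0, 11.9 and 19.1 FPKM in CON and at 5.91, 6.93 and 15.6 FPKM in LKO, with LKO 3 inside the CON range. Their log2 fold changes were -0.54 (SE 0.22) and -1.02 (SE 0.40), with adjusted p-values of 0.215 and 0.210 (limma). Cyp3a41a, Cyp3a41b, Cyp3a44 and Cyp3a16, known as female-biased or perinatal forms, stayed at or below 0.11 FPKM, with Cyp3a41a at 0.04, 0.01 and 0.03 FPKM in CON and at 0.04, 0.03 and 0 FPKM in LKO.

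**Figure D4:**
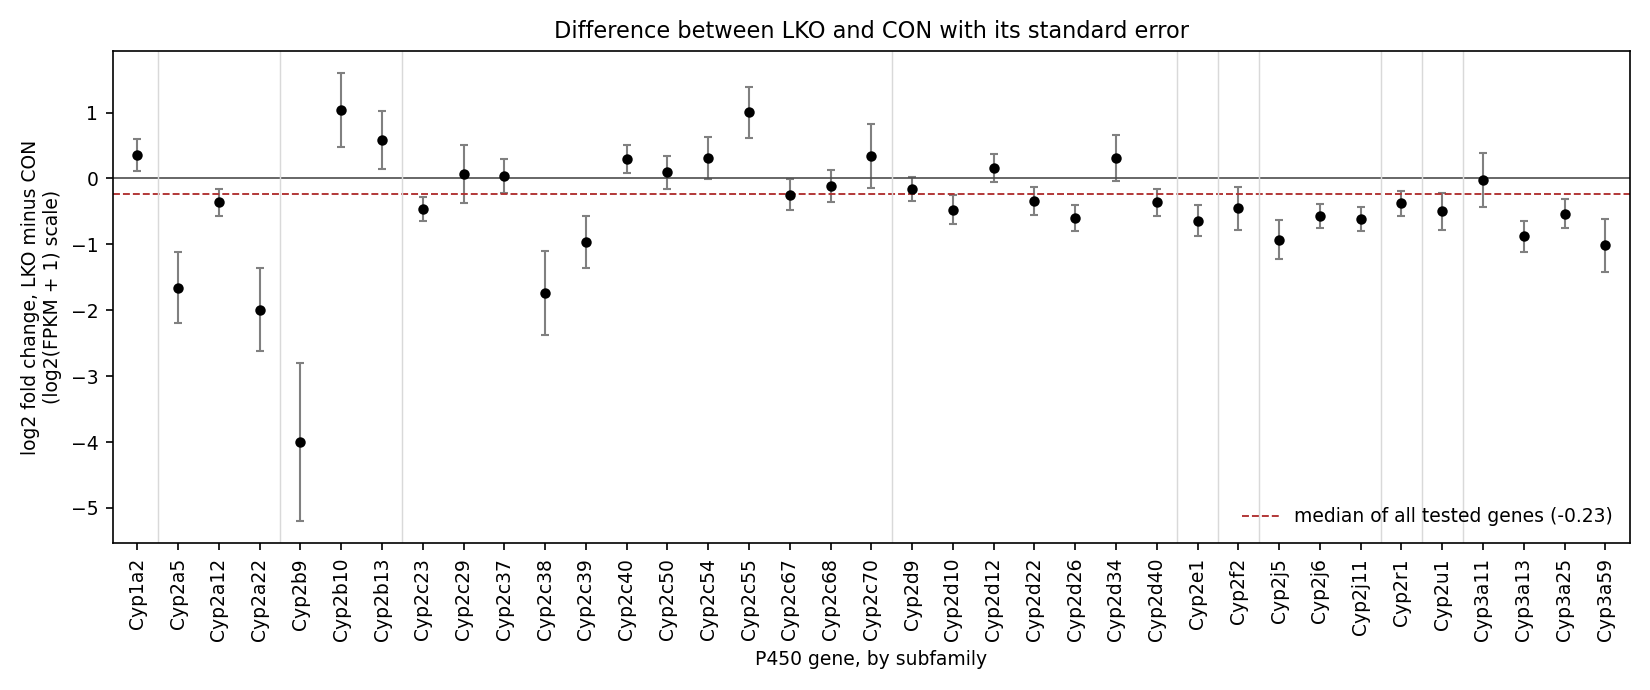
Log2 fold change of LKO against CON on the log2(FPKM + 1) scale (y axis), with its standard error, for the 37 tested P450 genes (x axis, by subfamily). The dashed line is the median of all tested genes at -0.23, and the points run from -4.00 for Cyp2b9 to 1.04 for Cyp2b10.

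The library pattern differed among members. LKO 3 was the highest of all 6 libraries for 7 of 37 members (18.9%, beside 11.4% of all tested genes), namely Cyp1a2, Cyp2b10, Cyp2c29, Cyp2c50, Cyp2c55, Cyp2c67 and Cyp2c70. Among the LKO libraries alone it was the highest for 27 members, 73.0%, beside 50.9% of all tested genes. CON 1 was the highest library for 20 members (54.1%, beside 40.2% of all tested genes), among them Cyp2e1, Cyp2a5, Cyp2a22, Cyp2b9, Cyp2c38 and Cyp2c39. LKO 3 also stood apart for Cd36, the deleted gene, which was at 61.95, 26.49 and 19.66 FPKM in CON 1 to 3 and at 2.73, 3.70 and 10.22 FPKM in LKO 1 to 3. Cd36 had a log2 fold change of -2.50 (SE 0.51, limma, adjusted p = 0.163; exact two-sided permutation test, p = 0.1, the lowest p this design can give). Without LKO 3, Cd36 passed at -2.98 (limma, adjusted p = 0.0165), and so did 6 members, all lower. These were Cyp2d10, Cyp2d26, Cyp2j5, Cyp2j6, Cyp3a13 and Cyp3a59, 16.2% of members beside 19% of all tested genes lower and 4.6% higher. Without LKO 3 the groups also differ in a trend with gene length (Spearman rho between gene length and the deviations of a library, 0.10 to 0.29 in CON and -0.33 and -0.30 in LKO 1 and LKO 2, beside 0.21 in LKO 3). The part of this trend in those calls was not tested.

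**Figure D5:**
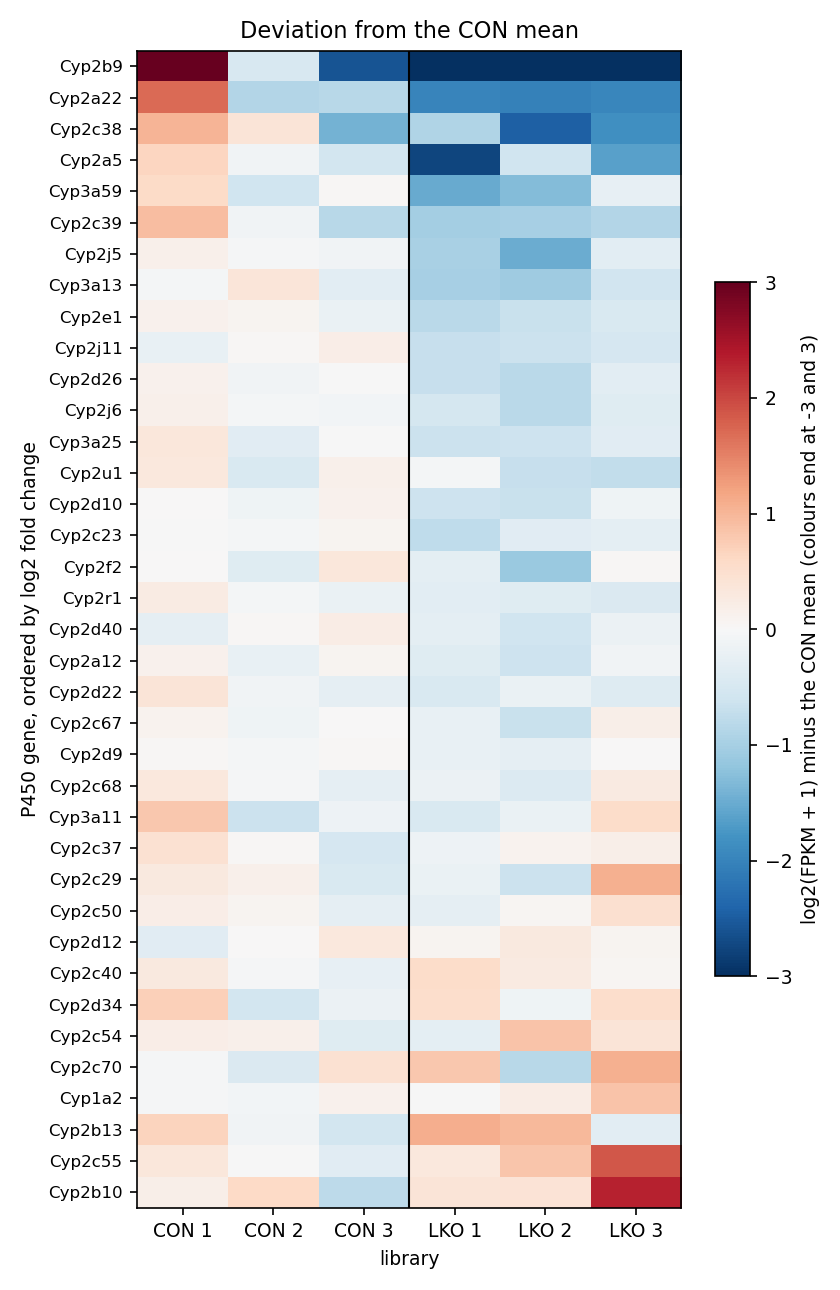
Deviation of each library (x axis) from the CON mean on the log2(FPKM + 1) scale (colour, ending at -3 and 3) for the 37 tested P450 genes (y axis, ordered by log2 fold change). Cyp2b9 is below the CON mean by more than the colour scale in the 3 LKO libraries, and Cyp2b10, Cyp2c55 and Cyp2c29 lie farthest above the CON mean in LKO 3.

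In the gene clusters, neighbours did not share a direction throughout. Along the chromosome 7 cluster of 13 members the log2 fold changes of the tested genes were 1.04 for Cyp2b10, 0.58 for Cyp2b13, -4.00 for Cyp2b9, -1.66 for Cyp2a5, -1.99 for Cyp2a22, -0.36 for Cyp2a12 and -0.45 for Cyp2f2, in that order. In the Cyp2c cluster of 14 members on chromosome 19, 4 tested genes were negative and 7 positive. In the Cyp2j cluster all 3 tested genes were negative, as were all 3 tested genes of the main Cyp3a cluster, beside 71.6% of all tested genes. Cyp3a11, however, was at -0.03 and its sign changed with the scaling. Related members share sequence, and how the counting divided shared reads is not given in the sources used here. Of the 37 tested members, 10 shared no stretch of 75 bases with any transcript of another gene in GENCODE M21, among them Cyp2j5, Cyp2j6, Cyp2j11, Cyp3a11 and Cyp3a13. Of the distinct stretches of 75 bases in the longest transcript, 5.16% were shared for Cyp2b9, 16.4% for Cyp2b13, 25.5% for Cyp2a5 and 2.96% for Cyp2e1. Cyp2c40 at 57.1%, Cyp2c67 at 36.0%, Cyp2c68 at 28.5% and Cyp2d10 at 26.7% were the others above 20%, so their single values are uncertain. The share of bases that lie in such stretches was not computed.

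Most regulators of P450 genes had lower values in LKO. Of 21 listed receptors and liver transcription factors 20 were tested and 18 had a negative log2 fold change (median -0.63), with 10 lower and 0 higher at an unadjusted p under 0.05. Of all tested genes 71.6% were negative, 18.9% lower and 3.25% higher by the same count, the background for each list that follows. After median-ratio scaling 16 were negative (median -0.35), with 2 lower and 1 higher, beside 48.9%, 7.96% and 10.2% of all tested genes. CAR (Nr1i3) was at 136, 122 and 122 FPKM in CON and at 74.5, 88.7 and 67.5 FPKM in LKO. Its groups did not overlap (log2 fold change -0.72, limma, adjusted p = 0.172), and LKO 3, the library with the highest Cyp2b10, had the lowest CAR level. Hlf, a circadian PAR bZIP factor, Ahr and the bile acid receptor Nr1h4 had log2 fold changes of -1.46, -0.67 and -0.62 with no overlap of the groups. Of 16 tested targets of PXR or CAR outside the P450 genes, 7 were lower and 2 higher at an unadjusted p under 0.05 (median -0.46, or -0.16 after median-ratio scaling with 1 lower and 2 higher), the higher ones being Gadd45b (1.37) and the carboxylesterase Ces2a (0.63). The transporter Slco1a4 at -1.59 and the glucuronosyltransferase Ugt2b34 at -0.57 were among the lower ones. Of 7 listed AHR targets 4 were tested and all were negative (median -0.61, or -0.36 after that scaling). These were Ugt1a6a at -0.78, Ugt1a6b at -0.64, Nqo1 at -0.59 and Lrat, also in the stellate cell list, at -0.23. By the same unadjusted count 3 were lower and 0 higher, or 1 and 0 after that scaling. None of the members of these 3 lists passed over all genes.

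Among the partners of P450 enzymes, the reductase Por was at 239, 372 and 235 FPKM in CON and at 247, 323 and 432 FPKM in LKO, with overlapping groups. Of the 6 electron donors and binding partners 3 were negative and 3 positive (median -0.13, or 0.16 after median-ratio scaling). The outer mitochondrial membrane form Cyb5b had a log2 fold change of -1.37 and the heme-binding protein Pgrmc1 of -0.54, both without overlap. Of the 12 genes of heme synthesis and breakdown 9 were negative (median -0.13), but 4 after median-ratio scaling (median 0.16). The lowest were Cpox (-0.98, or -0.68 after that scaling) and Fech (-0.82, or -0.53), which catalyse late steps of heme synthesis. Alas1, the rate-limiting enzyme of that pathway and named here after its values were seen, was at 859, 834 and 918 FPKM in CON and at 393, 480 and 1436 FPKM in LKO. It was highest in LKO 3, as were Por and Cyp2b10. Of 13 other phase I enzymes 12 were tested and all were negative (median -0.37, or 9 of 12 and -0.12 after median-ratio scaling), with Adh4 at -1.25 and the aldehyde oxidase Aox3 at -0.93. None of these genes passed over all genes.

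No gene of the lists of sex-biased, growth hormone and zonal genes outside the P450 families passed over all genes. Of 15 male-biased genes 14 were positive (median 0.92, or 1.21 after median-ratio scaling), and the major urinary proteins took 6.22%, 15.6% and 22.1% of all FPKM in CON 1 to 3 and 23.9% to 29.4% in LKO. CON 1, with the lowest of these shares, had the highest Cyp2b9, Cyp2a4 and Cyp2a22. It was, however, the highest library for 54.1% of the tested members and 40.2% of all tested genes. Cyp2b13 and Cyp2c69 were instead highest in LKO 1, at 12.9 and 1.77 FPKM beside 9.44 and 0.41 FPKM in CON 1. Of 12 female-biased genes 5 were tested and all were negative (median -0.93, or 4 of 5 and -0.77 after that scaling), including the steroid enzyme Cyp17a1 at -1.26. Of the 8 growth hormone signalling genes 6 were negative (median -0.54, or -0.29 after that scaling), with Stat5b at -0.72 and Stat5a at -0.73. The growth hormone targets among them went both ways, with Socs2 at 1.32, Igf1 at 0.56, Igfals at -0.54 and Cish at -0.67. Socs2, Igf1 and Cish, named after their values were seen, had overlapping groups, and Igfals was lower in LKO without overlap. The highest Socs2 value was that of LKO 3, at 39.05 FPKM. Of the 8 genes, 4 were lower and 0 higher at an unadjusted p under 0.05, or 2 and 2 after that scaling. Of 13 pericentral genes 12 were tested and all were negative (median -0.46), with the glutamate transporter Slc1a2 at -0.50, beside 9 of 12 periportal genes (median -0.37). After median-ratio scaling these were 9 of 12 (median -0.16) and 7 of 12 (median -0.07). The parts of growth hormone signalling and of zonation in the P450 differences were not tested, and in whole liver fewer cells of a type and less RNA per cell cannot be told apart.

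The libraries showed the defining markers of hepatocytes, with 9 listed genes found and summed levels of 89131 to 112741 FPKM in CON and of 92265 to 101672 FPKM in LKO. For other cell types the summed levels of the marker lists overlapped between the groups for macrophages (233 to 338 FPKM in CON, 181 to 354 in LKO), endothelial cells (33.5 to 95.0 and 46.5 to 63.5), stellate cells and fibroblasts (87.0 to 96.9 and 84.6 to 125), cholangiocytes (29.4 to 51.5 and 34.1 to 74.98), and red cells (92.1 to 609.6 and 145 to 335). Those for lymphocytes met at 1 value (3.20 to 4.05 and 4.05 to 5.81). In that list the T cell markers Cd2, Cd3e and Cd3g, untested at 0.20 to 1.30 FPKM, were each higher in LKO without overlap. Klrb1c, also untested, was lower in LKO without overlap (0.13 to 0.22 and 0.09 to 0.10 FPKM). The T cell marker Cd8a and the remaining lymphocyte markers overlapped. The summed levels for neutrophils did not overlap (5.74 to 11 and 1.95 to 5.50), with Ly6g listed at 0. The main genes of that sum each overlapped, S100a9 at 3.30 to 5.98 in CON and 0.83 to 3.35 FPKM in LKO. S100a8 was at 1.13 to 3.49 in CON and 0.64 to 1.63 FPKM in LKO. Csf3r and Retnlg overlapped as well, and Cxcr2 was lower in LKO without overlap. The adipocyte list was at 0.79 to 18.7 FPKM in CON and at 0.52 to 0.86 in LKO, nearly all of it Cfd, with Lep and Retn listed at 0 and Adipoq at or below 0.09 FPKM. The part of these cells in the P450 differences was not tested.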

How the data were processed

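Liver RNA was sequenced in 6 libraries, 3 CON and 3 LKO. The deposited table gives FPKM per gene, made by the authors with HISAT2 and StringTie on build mm9, per the submitters' processing notes. The sources used here do not give versions, the treatment of reads shared by related genes or the read depth. Whole reads could not be recovered from the FPKM, so depth is unknown and no interval rests on counts. Of 56536 lines, 2 that continue annotation text were dropped.

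Genes with a mean of at least 1 FPKM were tested on log2(FPKM + 1) with limma 3.58.1 in R 4.3.3 (lmFit, eBayes with a trend, no covariates, two-sided, Benjamini-Hochberg over 11104 genes, threshold 0.05), a fit tested on simulated data. A fold change on this scale understates the change of low genes. Log2 fold changes are LKO minus CON, and the error beside each is its standard error. Alternatives changed the pseudocount, filter, scaling or length trend, added a replicate block or left out 1 library.

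Values in every library are given for the 15 members with the smallest unadjusted p, the 10 with the highest mean and a fixed set of well-known members, and up to 4 genes of each companion list with the smallest p are named. Members and lists were chosen with earlier results of these data known. Motifs were searched in RefSeq promoters (GRCm38.p6) matched by symbol, gene order came from RefSeq, and shared stretches of 75 bases from GENCODE M21 transcripts. Protein sequences were not used here. Mup and mitochondrial shares are sums of FPKM.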

Additional observations from a re-analysis of the deposited data

How the results depend on the processing

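Of the 37 tested members, 28 kept their direction in every alternative that tested them (14, or 13 for members lost to the filter at a mean of 5 FPKM, which left 29). The count of genes passing over all genes, 1 as reported, was 0 with a pseudocount of 0.1, without a filter, with a filter at a mean of 5 FPKM, with the length trend removed and with the replicate block, and ranged from 0 to 2626 when 1 library was left out (4 without CON 1, 2 without CON 2, 5 without CON 3, 2626 without LKO 3). The count of members passing, 0 as reported, ranged from 0 to 6 (6 without LKO 3), and Cd36 passed without LKO 3 at -2.98, in a range of -2.98 to -2.03 when 1 library was left out. The median of the members moved from -0.36 to -0.066 after median-ratio scaling, the only alternative that moved it beyond the range set for it. The count of members lower at an unadjusted p under 0.05, an alternative count chosen after seeing the data, was 14 as reported, 5 after median-ratio scaling, 9 after quantile normalization and 6 with the length trend removed, and 5 to 15 when 1 library was left out (5 without CON 1, 9 without LKO 1, 8 without LKO 2). Signs turned in 9 members, whose log2 fold changes as reported ran from -0.24 (Cyp2c67) to 0.35 (Cyp2c70). After median-ratio scaling Cyp2c67 was at 0.052, Cyp2c68 at 0.19, Cyp2d9 at 0.14 and Cyp3a11 at 0.27. After quantile normalization Cyp2c29 was at -0.044 and Cyp2c68 at 0.064, and with the length trend removed Cyp2c68 was at 0.041 and Cyp3a11 at 0.22. Leaving out 1 library gave -0.42 to 0.43 for Cyp2c29 (negative without CON 3 or LKO 3), -0.21 to 0.27 for Cyp2c37 (the same), -0.10 to 0.27 for Cyp2c50 (the same), -0.30 to 0.046 for Cyp2c68 (positive without CON 1 or LKO 2), -0.0079 to 0.94 for Cyp2c70 (negative without LKO 3), -0.011 to 0.32 for Cyp2d12 (negative without CON 1) and -0.35 to 0.37 for Cyp3a11 (positive without CON 1, LKO 1 or LKO 2). The cause of these shifts was not tested. The labels do not say whether replicate numbers pair the libraries. Correlations of same-numbered deviations were -0.05, 0.17 and 0.07, beside -0.16 to 0.06 for different numbers. With so few libraries these values cannot decide it. With the replicate block no member passed, the smallest adjusted p of a member being 0.190 (limma), and 12 were lower at an unadjusted p under 0.05. With 3 libraries a group and unknown depth, members with a mean below 1 FPKM were given by their values and not tested.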

Other observations

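The rule left out 23 P450 pseudogenes and Cyp2ab1, whose subfamily has a pair of letters, and 4 of these 24 genes reached a mean of 1 FPKM. They are named here after their values were seen. Cyp2d38-ps was at 17.0, 21.5 and 20.4 FPKM in CON 1 to 3 and at 5.94, 6.96 and 10.1 FPKM in LKO 1 to 3, without overlap, and its log2 fold change of -1.27 did not pass over all genes (SE 0.22, limma, adjusted p = 0.163). Cyp2c53-ps was at 0.75, 0.97 and 2.01 FPKM in CON and at 1.88, 6.10 and 5.14 FPKM in LKO, with overlap, a log2 fold change of 1.20 and no pass (SE 0.37, limma, adjusted p = 0.182). Cyp2d37-ps and Cyp2d41-ps had overlapping groups, with log2 fold changes of 0.38 and 0.40. The signs thus differed among the Cyp2d pseudogenes.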
